A study of Mus musculus with 3 samples.

Results

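The AP-1 family other than *Fosl2* was described as the 8 rows *Fos*, *Fosb*, *Fosl1*, *Jun*, *Junb*, *Jund*, *Batf* and *Atf3* of a deposited single-cell table of 24958 genes. These genes were chosen by name, not by a measured value, and *Fosl2* served as a reference. All 8 members were present in the table and together took 1953041 of its 240030587 UMIs, or 0.814%. UMIs are counted molecules, and the level of a gene in a group of cells is given as its summed UMIs per 10000 UMIs of all genes.

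Cells of mouse ovaries had been sequenced on the 10x platform. According to the labels, 3 libraries were made, 1 each from ovaries taken 0, 1 and 6 h after injection of hCG, a hormone that acts through the LH receptor. The study describes prepubertal Kunming mice primed with PMSG, which acts like FSH, and this was read as the 0 h library. The study's data statement names the deposited series, but the title of the series names another subject than that study. The strain and the priming come from the study alone and may not hold for these libraries. Neither the labels nor the study's text state whether the mice of the later libraries had been primed, how many ovaries entered a library, or any genotype other than the strain.

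The 31776 cells carry barcode endings 1, 2 and 3, here called barcode sets, with 10384, 9917 and 11475 cells. The endings could not be matched to libraries from the sources used here. The sets therefore carry no time point, and the table was treated as 1 sample without a test. Intervals are 95% Poisson intervals for a level and exact conditional intervals for a ratio, and cover counting error only. The median depth was 6093, 6352 and 6524 UMIs per cell, and sets 1 and 2, 1 and 3, and 2 and 3 shared 27, 46 and 39 barcodes. The median mitochondrial share was 3.95%, 4.42% and 2.93%. A list of 15 genes that respond to tissue dissociation and stress, without AP-1 members, summed to 50.8, 89.0 and 77.5 UMIs per 10000 in sets 1, 2 and 3. Its genes did not move alike. *Btg2*, at 6.53, 17.7 and 5.56, and *Cebpb*, at 3.53, 13.1 and 4.905, were highest in set 2. *Mt1*, at 6.75, 7.17 and 20.2, and *Mt2*, at 1.31, 1.945 and 9.60, were highest in set 3. Whether the genes of this list responded to dissociation or to hCG was not tested. Leaving out the cells highest in it, as done below, is therefore not a correction for dissociation. The part of these differences in the results below was not tested.

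AP-1 is a family of transcription factors that bind DNA as dimers joined by a leucine zipper. FOS proteins need a JUN partner, JUN proteins can pair with each other or with FOS and ATF proteins, and BATF and ATF3 often act as repressors in such dimers. Most of these genes are immediate-early genes, switched on within minutes by growth factors, gonadotropins through cAMP, or cell stress, which includes the enzymatic dissociation of tissue. In granulosa cells (GCs), FSH and LH are both known to induce members of the family.

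The promoters of *Fos*, *Fosb*, *Jun* and *Junb* are shown first. Many immediate-early genes hold a cAMP response element or a related JUN and ATF site close to their start. Each run is the 120 bases before the RefSeq start site on the strand of the gene, in build GRCm38.p6, with the site in capitals.
Fos, chr12:85473770-85473889, plus strand: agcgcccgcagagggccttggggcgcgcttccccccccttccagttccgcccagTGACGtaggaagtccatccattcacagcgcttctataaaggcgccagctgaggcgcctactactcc
Fosb, chr7:19310046-19310165, minus strand: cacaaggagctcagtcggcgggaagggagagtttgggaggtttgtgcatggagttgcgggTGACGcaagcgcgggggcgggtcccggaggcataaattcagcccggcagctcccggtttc
Jun, chr4:95052223-95052342, minus strand: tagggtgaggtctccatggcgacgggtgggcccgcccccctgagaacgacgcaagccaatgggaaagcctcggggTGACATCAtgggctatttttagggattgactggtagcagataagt
Junb, chr8:84978749-84978868, minus strand: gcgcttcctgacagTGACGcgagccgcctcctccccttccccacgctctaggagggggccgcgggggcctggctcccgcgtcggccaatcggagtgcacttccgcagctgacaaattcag

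The 4 motifs named here were searched on both strands of the 250 bases before the start. The short site TGACG of the cAMP response element, or its reverse complement, stood at bases 129 to 125 and 66 to 62 before the start of *Fos*, at 60 to 56 in *Fosb*, at 106 to 102 in *Junb* and at 98 to 94 in *Batf*. It was found in 17.8% of 32851 promoters. *Jun* held TGACATCA, a site known for JUN and ATF2 dimers, at bases 45 to 38, as did 2.93% of the promoters. The full element TGACGTCA, which contains the short site, was found in 1.55% of the promoters and the AP-1 site TGANTCA in 6.75%, and neither stood in this window of *Fos*, *Fosb*, *Jun*, *Junb* or *Batf*. *Fosl1* had no entry in the table of promoters. The RefSeq starts of *Jund*, *Atf3* and *Fosl2* lay 1210, 34706 and 671 bases from those of GENCODE M21, so their stretches are not shown or described.

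The genes lie on 6 chromosomes of the mouse (GRCm38, GENCODE M21). *Fos* spans chr12:85473890-85477273 and *Batf* chr12:85686669-85709087, both on the plus strand of the same chromosome. *Junb* (chr8:84974484-84978718, minus strand) and *Jund* (chr8:70698949-70700616, plus strand) share a chromosome as well. *Jun* (chr4:95049034-95052222), *Junb* and *Jund* each have coding transcripts of 1 exon. *Fosb* lies at chr7:19302696-19310051, *Fosl1* at chr19:5447547-5455946 and *Atf3* at chr1:191170296-191218039.

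Cells were put into classes by marker genes. This gate named 11902 granulosa-like, 2716 theca-like, 10233 stroma-like, 645 smooth muscle and pericyte-like, 1654 endothelial-like and 377 myeloid-like cells, each class with at least 50 cells in every set. Another 4132 cells passed no gate, 10.0%, 9.77% and 18.5% of sets 1, 2 and 3, and 6737 cells (21.2%) passed the level for more than 1 class. The 52 markers of these classes themselves set the gate. Their levels by class follow largely from it and are no independent check of the class names. Of the 52, 51 were highest in their own class among the 6. *Gatm*, a granulosa marker, was not, at 0.268 UMIs per 10000 in granulosa-like against 4.57 in myeloid-like cells. *Foxl2*, another, was at 1.70 in granulosa-like against 1.35 in stroma-like cells, and *Acta2* of smooth muscle at 148.1 in its class against 14.85 in stroma-like cells. *Inha*, the inhibin alpha subunit, was at 51.9 UMIs per 10000 in granulosa-like cells against 1.67 in stroma-like cells, *Cyp17a1*, the theca androgen enzyme, at 35.2 in theca-like cells against 0.328 in granulosa-like cells, and *Lyz2*, a lysozyme of macrophages, at 56.2 in myeloid-like cells against 0.0323 in granulosa-like cells. The other 4 classes had 14 to 52 cells in all and are not described.

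Over all cells, most members were at like levels in the 3 sets, and *Junb*, *Atf3* and *Fosl1* were not. *Junb* was at 10.35, 19.8 and 9.52 UMIs per 10000 in sets 1, 2 and 3, highest in set 2. *Atf3* was at 1.19, 2.14 and 1.72, lowest in set 1. *Fosl1* had 22, 298 and 350 UMIs in the 3 sets, or 0.00270, 0.0409 and 0.0408 UMIs per 10000, so set 1 stood far below both others. Of the 8 members, all with at least 50 UMIs in each comparison, only *Fosl1* was at least 2-fold higher in set 2 than in set 1 (15.1-fold, interval 9.80 to 24.5), beside 5.21% of all genes tested, and none was at least 2-fold lower, beside 9%. *Junb* alone was at least 2-fold lower in set 3 than in set 2 (ratio 0.480, 0.476 to 0.484, background 10.5%), and no member was higher (9.55%). Between sets 3 and 1, *Fosl1* was again the only member past 2-fold (15.1-fold, 9.81 to 24.4), with 6.78% of genes that much higher and 14.4% that much lower. In several comparisons here and below, *Fosl1* and *Batf* reached the minimum of 50 UMIs only through the group where they are high, so their calls are given as values. Counts that include them, as in the closing section on processing, describe the calls and are not read as a result about the members. The median gene over all cells was at a log2 ratio of -0.28, 0.09 and -0.16 for set 2 over set 1, set 3 over set 2 and set 3 over set 1. *Fosl2* was at 2.16, 3.71 and 1.21 UMIs per 10000, with a ratio of 0.326 between sets 3 and 2.

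*Fos* and *Fosb* encode FOS proteins that can activate transcription and are classical immediate-early products. Over all cells *Fos* was at 17.6, 16.9 and 17.3 UMIs per 10000 in sets 1, 2 and 3, a span smaller than that between classes. Within set 1 its level ran in the order stroma-like (25.3), myeloid-like (21.7), smooth muscle-like (17.7), theca-like (15.9), granulosa-like (14.1) and endothelial-like (10.9), and no neighbours in this order had overlapping intervals. In set 2 myeloid-like cells were highest (27.1) and endothelial-like cells lowest (8.61), with theca-like, granulosa-like and stroma-like cells between 16.2 and 18.6. In set 3 the range was 24.9 in myeloid-like to 7.16 in endothelial-like cells, and the theca-like and smooth muscle-like intervals overlapped. Endothelial-like cells were thus lowest for *Fos* in every set.

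*Fosb* was at 11.8, 11.2 and 13.85 UMIs per 10000 over all cells. Its highest class was stroma-like in sets 1 and 3 (16.0 and 15.8) and theca-like in set 2 (13.4), and its lowest was endothelial-like in all 3 sets (5.72, 4.58 and 5.34). Myeloid-like cells, high in *Fos*, were at 8.01, 9.76 and 8.57 in *Fosb*, below the granulosa-like level of the same set. The intervals of *Fos*, *Fosb*, *Jun*, *Junb* and *Jund* reached at most 1.49% to either side of the level in granulosa-like cells, 1.38% in stroma-like cells and 9.49% in myeloid-like cells.

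The sparsest FOS member, *Fosl1*, encodes FRA-1, which lacks a strong activation domain. In granulosa-like cells it had 3, 197 and 179 UMIs in sets 1, 2 and 3, so it was 63.1-fold higher in set 2 than in set 1 (21.3 to 308) and 63.7-fold higher in set 3 (21.5 to 312). Of the 179 UMIs of set 3, 164 lay in granulosa-like cells that passed none of the subclass gates described below, and 3, 1 and 11 in preantral-like, antral mural-like and atretic-like ones. Under a stricter gate the ratio of sets 3 and 1 was 10.9 on fewer than 50 UMIs. Its levels were 0.000938, 0.0592 and 0.0598 UMIs per 10000. In the granulosa-like cells thinned to 3000 UMIs each, it had a UMI in 0 of 3872 cells of set 1, which allows a share of up to 0.0775%, in 1.62% (1.25 to 2.05) of set 2 and in 1.42% (1.05 to 1.88) of set 3. Without thinning these shares were 0.0729%, 4.21% and 4.39%, at median depths of 6064, 6822 and 7371 UMIs. The endothelial-like class, with medians of 5208, 5201 and 4802 UMIs per cell, gave 0, 2 and 2 UMIs, levels of 0, 0.00419 and 0.00736, and 0 of 386, 591 and 339 thinned cells. Myeloid-like cells had none in any set, which allows up to 0.0436 UMIs per 10000 in set 2. Theca-like cells held 5, 24 and 29 UMIs, and stroma-like cells were at 0.00486, 0.0205 and 0.0226 UMIs per 10000. The part of free RNA in these sparse counts was not tested, and they are not read as expression in those classes.

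**Figure D1:**
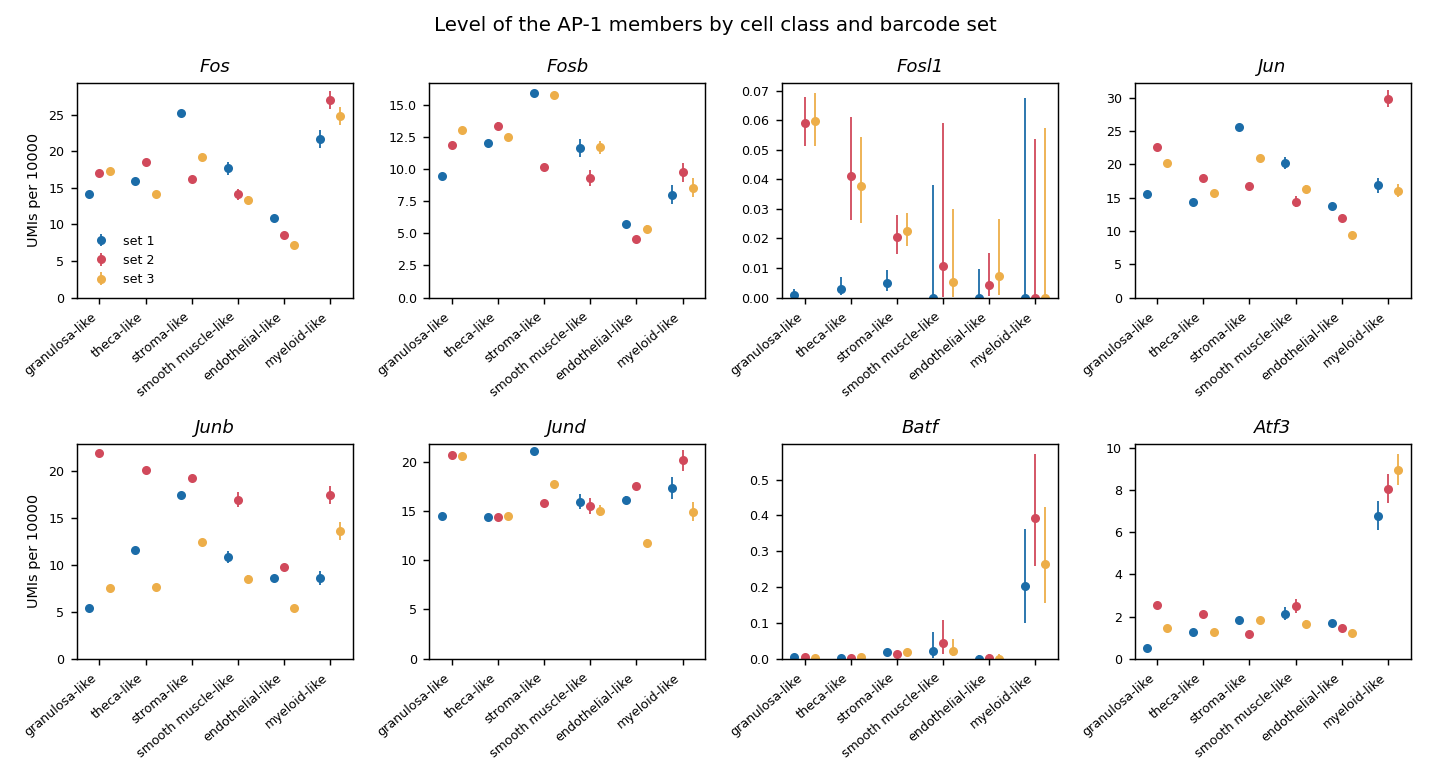
Level of each AP-1 member in UMIs per 10000 (y axis, from 0, scale set for each gene) in 6 cell classes (x axis) and barcode sets 1, 2 and 3 (colours), with 95% Poisson intervals as bars. *Junb* of set 2 stands at 21.9 in granulosa-like cells against 5.41 and 7.53 in sets 1 and 3, and *Batf* and *Atf3* are highest in myeloid-like cells of every set.

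Among the JUN proteins, JUN is the strong activator, JUNB often restrains it, and JUND is the constitutive member of the family. *Jun* was at 17.9, 19.65 and 20.1 UMIs per 10000 over all cells of sets 1, 2 and 3. In granulosa-like cells it was at 15.5, 22.6 and 20.2 UMIs per 10000, lowest in set 1. In stroma-like cells the order was the other way, at 25.5, 16.7 and 20.98. The highest level of *Jun* in a class and set was 29.8 (28.5 to 31.1) in myeloid-like cells of set 2, and the lowest 9.45 (9.09 to 9.82) in endothelial-like cells of set 3.

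*Junb* differed most between sets among the abundant members. In granulosa-like cells it was at 5.41, 21.9 and 7.53 UMIs per 10000 (intervals 5.33 to 5.49, 21.7 to 22.0 and 7.44 to 7.63). The granulosa-like class was thus the lowest of 6 in set 1 and the highest in set 2. Theca-like cells followed at 11.6, 20.05 and 7.65, and myeloid-like cells at 8.56, 17.4 and 13.6. Stroma-like cells differed less, at 17.4, 19.2 and 12.4, endothelial-like cells were at 8.53, 9.76 and 5.42, and smooth muscle-like cells at 10.8, 16.9 and 8.43. Thinned to 3000 UMIs, 58.4%, 96.4% and 79.6% of the granulosa-like cells had a *Junb* UMI (73.4%, 98.3% and 92.2% unthinned), and the median cell was at 2.999, 21.3 and 6.31 UMIs per 10000.

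*Jund* spread over a narrower range. Its granulosa-like level was 14.4, 20.7 and 20.6 UMIs per 10000 in sets 1, 2 and 3, and theca-like cells were at 14.35, 14.3 and 14.5. Stroma-like cells were at 21.1, 15.75 and 17.7, highest in set 1. In set 2 the granulosa-like and myeloid-like intervals overlapped at the top of the order, and in set 3 granulosa-like cells stood alone at the top. In endothelial-like cells *Jund* was at 16.1, 17.5 and 11.7.

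*Batf*, known from lymphocytes and dendritic cells, dimerizes with JUN proteins and lacks an activation domain. It had 72, 83 and 95 UMIs in sets 1, 2 and 3, and was highest in myeloid-like cells at 0.202 (0.101 to 0.361), 0.393 (0.259 to 0.571) and 0.264 (0.154 to 0.423) UMIs per 10000. Granulosa-like cells were at 0.00563, 0.003003 and 0.00267. Stroma-like cells held 33, 26 and 54 of its UMIs at 0.0178, 0.0130 and 0.0182 UMIs per 10000. A UMI of *Batf* was found in 9.38%, 15.6% and 11.6% of the myeloid-like cells and in 0%, 0.137% and 0% of the endothelial-like cells, and after thinning in 1.41%, 10.6% and 5.75% against 0%, 0.169% and 0%. Median depths were 4932, 4776 and 3417 UMIs in myeloid-like cells.

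*Atf3* encodes a stress-induced bZIP factor that represses many of its targets. Like *Batf*, it was highest in myeloid-like cells of every set, at 6.78 (6.11 to 7.51), 8.09 (7.43 to 8.79) and 8.99 (8.28 to 9.76) UMIs per 10000. Against all other cells of the same set these levels were 5.88, 3.88 and 5.40 times as high, and those of *Batf* 26.7, 50.6 and 28.8 times. *Batf* and *Atf3* were the members at least 2-fold higher in myeloid-like cells in each set, beside 11.4%, 13.8% and 12.2% of all genes tested. In granulosa-like cells *Atf3* was at 0.486, 2.55 and 1.47, and these intervals did not overlap. In stroma-like cells it was at 1.85, 1.19 and 1.84.

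The question of where the family stands in GCs was asked within each set, against all other cells. In set 1 every member with at least 50 UMIs was lower in granulosa-like cells, and *Junb* (5.41 against 13.6 UMIs per 10000) and *Atf3* (0.486 against 1.65) were at least 2-fold lower, 2 of 7 members beside 17.3% of all genes tested. No member was 2-fold higher, beside 8.99%. In set 2 *Fosl1* was at least 2-fold higher (0.0592 against 0.0255, background 8.27%), and no member other than *Batf* was that much lower (20.8%). In set 3 *Batf* was lower (0.00267 against 0.0156, background 15%) and none was higher (9.71%). *Fosl2* was at 2.68 against 1.82, 4.55 against 3.01 and 1.32 against 1.15 in sets 1, 2 and 3, higher in granulosa-like cells in each. The median stress list was at 24.45 UMIs per 10000 in granulosa-like against 57.8 in other cells of set 1, 80.5 against 88.9 in set 2 and 56.25 against 77.9 in set 3, and its part in these differences was not tested. Without the 25% of cells of set 1 highest in this list, *Junb* was at a ratio of 0.573 instead of 0.399, no longer past 2-fold, and *Atf3* was still past it. Under a stricter gate the *Fosl1* ratio of set 2 was 1.94, under 2-fold, and that of set 3 went from 1.95 to 0.329, the other direction. The share of all genes past 2-fold was not taken without these cells or under this gate.

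Between sets within granulosa-like cells, 7 members had enough UMIs and *Batf* did not. Set 2 over set 1, the ratio was 63.1 for *Fosl1*, 5.26 for *Atf3* (4.98 to 5.55) and 4.04 for *Junb* (3.98 to 4.11), so *Junb* and *Atf3* were 2 of the 6 members other than *Fosl1* at least 2-fold higher, beside 6.25% of all genes. The other 4 were higher by less, *Jun* by 1.46, *Jund* by 1.43, *Fosb* by 1.26 and *Fos* by 1.21 times, and none was 2-fold lower, beside 18.4%. The median gene of granulosa-like cells was at a log2 ratio of -0.46 here, 0.31 for set 3 over set 2 and -0.12 for set 3 over set 1, so the members' ratios against it are larger than stated in the first and the last, and smaller in the other. Between sets 3 and 2, *Junb* was at a ratio of 0.345 (0.34 to 0.35) and *Atf3* at 0.575 (0.554 to 0.596). *Junb* was the only member past 2-fold, beside 8.76% of genes lower, and none was higher, beside 17.9%. *Fos*, *Fosb*, *Fosl1*, *Jun* and *Jund* lay between 0.896 and 1.10 here in the pooled class, whose subclasses, described below, had other shares in each set. Within them *Fos* was at 0.652 in preantral-like, 0.843 in atretic-like and 1.44 in antral mural-like GCs and at 0.812 outside all 3, and *Fosb* was at 1.49 in antral mural-like GCs. Between sets 3 and 1, *Atf3* (3.02) was the only 1 of the 6 members other than *Fosl1* at least 2-fold higher, beside 7.98%. None was lower, beside 13.2%. The ratio of *Fosl1* was 63.7. Under a stricter gate the *Fosl1* ratio of sets 3 and 1 was 10.9 on fewer than 50 UMIs and was no longer called. Between sets 3 and 2 *Fosl1* (0.235) and *Atf3* (0.4196) joined *Junb* past 2-fold lower under this gate. The share of all genes past 2-fold was not taken under it. In preantral-like GCs *Fos* (0.782, 0.759 to 0.806), *Jun* (0.929) and *Junb* (0.875) were lower in set 3 than in set 1, where the pooled ratios were 1.22, 1.31 and 1.39. *Jund* was higher there (1.155), and in antral mural-like GCs *Fos*, *Jun* and *Junb* were at 1.73, 1.81 and 1.915. Without the 25% of all cells of each set highest in the stress list, the preantral-like ratios were 0.901 for *Fos*, 1.04 (0.998 to 1.08) for *Jun* and 1.13 (1.06 to 1.20) for *Junb*. The 3 comparisons between sets share their sets. In all granulosa-like cells of sets 1, 2 and 3 the stress list summed to 33.2, 82.2 and 59.3 UMIs per 10000.

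**Figure D2:**
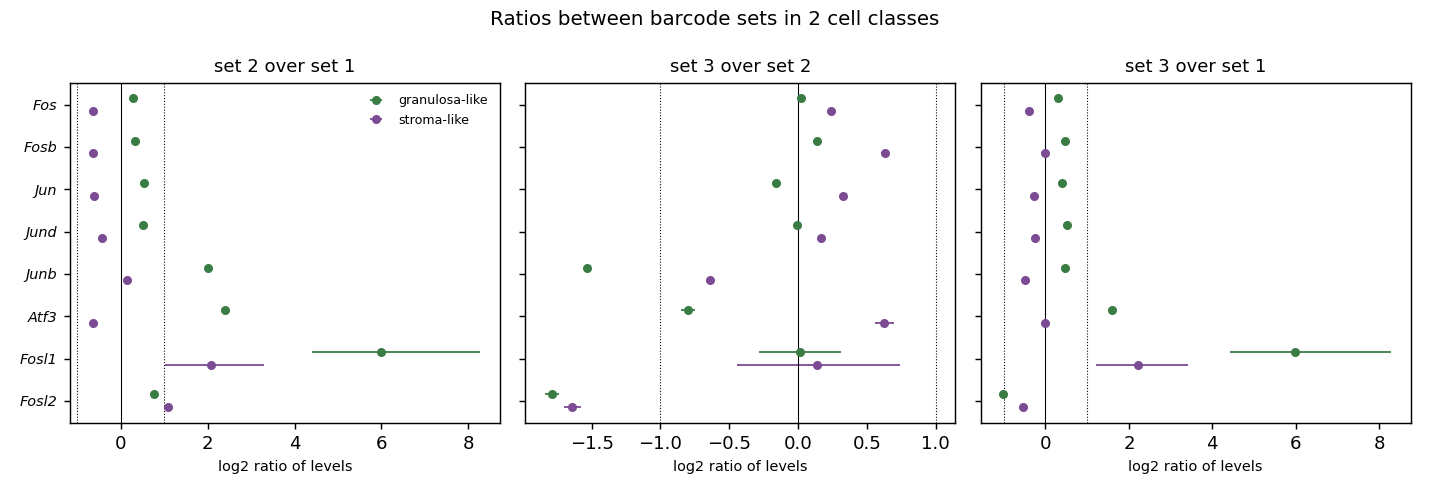
Log2 ratio of the levels (x axis) of 7 members and *Fosl2* (y axis) between barcode sets, in granulosa-like (green) and stroma-like cells (purple), with exact 95% counting intervals and dotted lines at 2-fold. Set 2 over set 1, *Fos*, *Fosb*, *Jun*, *Jund* and *Atf3* lie to the right of 0 in granulosa-like cells and to the left in stroma-like cells.

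Stroma-like cells gave another order of sets than GCs. Set 2 over set 1, *Fos* was at a ratio of 0.640 (0.631 to 0.649), *Fosb* at 0.638 (0.627 to 0.650), *Jun* at 0.655 (0.646 to 0.664), *Atf3* at 0.642 (0.609 to 0.677) and *Jund* at 0.747 (0.736 to 0.758). All 5 were higher in set 2 in granulosa-like cells, and the difference between the classes was not tested. *Junb* was higher in both, 1.10-fold in stroma-like and 4.04-fold in granulosa-like cells. No member other than *Fosl1* was at least 2-fold higher in stroma-like cells, beside 2.58% of genes, and none was that much lower, beside 5.21%. *Fosl1* was at a ratio of 4.22 (2.02 to 9.88), on 41 UMIs in set 2 and 9 in set 1. It reached the UMI minimum only through set 2. Its ratio is given as a value and is not read as a change in stroma-like cells. The median gene was at a log2 ratio of -0.19. *Fosl2* was 2.14-fold higher (2.05 to 2.24).

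The stroma-like ratios were also taken without the cells highest in the stress list, in 2 ways. Among the 5 abundant members and *Atf3*, the 2 ways differed in direction for *Atf3* of set 2 over set 1. They also differed for *Fos*, *Jun*, *Junb* and *Jund* of set 3 over set 1. The list summed to 70.1, 102.5 and 93.1 UMIs per 10000 in stroma-like cells of sets 1, 2 and 3. Over all cells its sum rests on partly different genes in each set, as given at the start. Which of its genes mark the cells left out was not tested. Leaving out the 25% of all cells of each set with the highest list took 44.25%, 35.3% and 35.7% of the stroma-like cells of sets 1, 2 and 3, but 6.73%, 16.6% and 12.5% of the granulosa-like ones, so the step itself weighs unequally on classes and sets. It took *Fos* from 25.3 to 12.98 UMIs per 10000 in stroma-like cells of set 1, where *Fos* went with the list at r = 0.80, and from 16.2 to 12.3 in set 2, where r was 0.46. The set 2 over set 1 ratio in stroma-like cells became 0.95 for *Fos*, 0.848 for *Fosb*, 0.929 for *Jun*, 0.998 for *Jund* and 1.35 for *Atf3* (1.22 to 1.49), and *Junb* went from 1.10 to 1.77. Between sets 3 and 1 it went from 0.758 to 1.26 for *Fos*, 0.822 to 1.25 for *Jun*, 0.709 to 1.23 for *Junb* and 0.839 to 1.15 for *Jund*, and that of *Atf3* from 0.992 to 2.52, past 2-fold. In granulosa-like cells the same step left *Fos* at 1.21, *Jun* at 1.48 and *Jund* at 1.43 for set 2 over set 1, and *Junb* and *Atf3* at 4.57 and 5.73. Over all cells it took *Junb* to 2.75 and *Atf3* to 2.92, both past 2-fold. The share of all genes past 2-fold was not taken after this step.

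When the 25% were instead taken within each class and set, a step chosen after seeing the data, the stroma-like ratios of set 2 over set 1 stayed below 1, at 0.712 for *Fos*, 0.678 for *Fosb*, 0.729 for *Jun*, 0.844 for *Jund* and 0.808 for *Atf3* (0.752 to 0.868). Those of set 3 over set 1 were at 0.932 for *Fos*, 0.981 for *Jun*, 0.92 for *Junb* and 0.971 for *Jund*, closer to 1 than in all cells and still below it, and *Atf3* was at 1.38. In granulosa-like cells this step gave 1.64 for *Fos*, 1.76 for *Jun*, 6.47 for *Junb* and 9.04 for *Atf3* for set 2 over set 1. It took *Junb* to 2.12 for set 3 over set 1, past 2-fold, and the share of all genes was not taken here either. The part of the genes of the stress list in these ratios was not tested.

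**Figure D3:**
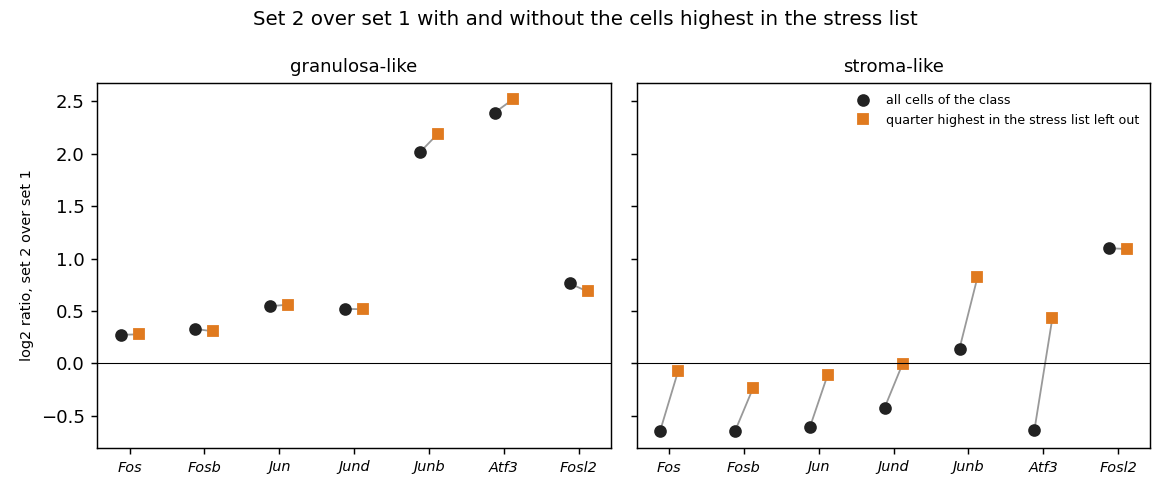
Log2 ratio of set 2 over set 1 (y axis) for 6 members and *Fosl2* (x axis) in granulosa-like (left) and stroma-like cells (right), in all cells of the class (circles) and without the 25% of all cells of each set highest in the stress list (squares). The stroma-like log2 ratios of *Fos*, *Jun* and *Jund* move close to 0 and that of *Atf3* changes sign, while the granulosa-like ratios of the 6 members move less. The *Fosl2* ratio, given here before the log2, moves from 1.697 to 1.61 in granulosa-like and from 2.14 to 2.13 in stroma-like cells. The step left out 44.25% and 35.3% of the stroma-like but 6.73% and 16.6% of the granulosa-like cells of sets 1 and 2.

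Across single cells, the 5 abundant members and *Atf3* went together with the stress list, to a degree that differed between sets, while for the sparse *Fosl1* and *Batf* the values were near 0 or low. These values are correlations over cells that share a library, given as a description. In granulosa-like cells, *Fos* and *Fosb* correlated at r = 0.62, 0.51 and 0.64 in sets 1, 2 and 3 (4117, 4276 and 3509 cells), and *Fos* and *Jun* at 0.65, 0.42 and 0.63. *Fos* and *Junb* correlated at 0.65 and 0.55 in sets 1 and 3 and at 0.07 in set 2, where *Junb* was highest. In stroma-like cells, *Fos* and *Junb* were at 0.77, 0.43 and 0.60. With the stress list, *Fos* was at 0.71, 0.33 and 0.42 in granulosa-like cells and at 0.80, 0.46 and 0.47 in stroma-like cells, highest in set 1 in both classes. *Junb* was at 0.67, 0.54 and 0.48 in granulosa-like cells with this list, *Atf3* at 0.33, 0.34 and 0.39, and *Fosl2* at -0.06, 0.29 and 0.16. *Fosl1* and *Batf* were between -0.03 and 0.02 with *Fos* in granulosa-like cells, and at 0.02, 0.04 and 0.10 and at 0.02, 0.01 and -0.02 with the stress list. With the log of the cell's UMIs, the correlation of *Fos* stayed within 0.03 and 0.17 in granulosa-like cells. These correlations pool the granulosa-like subclasses described next. Antral mural-like over preantral-like, the ratio of levels in sets 1, 2 and 3 was 0.348, 0.3503 and 0.771 for *Fos* and 0.383, 1.52 and 0.838 for *Junb*. No correlation was taken within a subclass, and the part of this mix in the low *Fos* and *Junb* value of set 2 was not tested.

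Granulosa-like cells were split by markers of preantral follicles (*Amh*, *Kctd14*, *Gatm*, *Slc18a2* and *Igfbp5*), of antral mural GCs (*Lhcgr*, *Nppc*, *Cyp19a1* and *Inhba*) and of atretic follicles (*Itih5*, *Cald1*, *Pik3ip1* and *Ghr*). The preantral-like subclass held 269, 317 and 660 cells of sets 1, 2 and 3, the antral mural-like subclass 2019, 2484 and 90, and the atretic-like subclass 1022, 679 and 275. The other 807, 796 and 2484 granulosa-like cells passed none of these gates, so the subclasses leave out most of the 3509 granulosa-like cells of set 3. *Lhcgr*, the LH receptor and a marker of the antral mural gate, was itself lower over all cells of set 3 than of set 1, at a ratio of 0.0866, and only 90 cells of set 3 passed this gate.

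*Fos* was higher in the preantral-like subclass than in the antral mural-like one in every set, at 28.1 against 9.80 UMIs per 10000 in set 1, 33.7 against 11.8 in set 2 and 22.0 against 17.0 in set 3. The reference *Fosl2* went the other way, at 1.14 against 3.59, 1.502 against 5.21 and 0.733 against 2.42. Antral mural over preantral, *Fosl2* was at a ratio of 3.16 (2.80 to 3.58), 3.47 (3.16 to 3.83) and 3.29 (2.71 to 3.99), while *Fos* was at 0.348 (0.339 to 0.358), 0.3503 (0.342 to 0.359) and 0.771 (0.724 to 0.822). *Junb* was lower in antral mural-like GCs of set 1 (3.78 against 9.88) and higher in those of set 2 (24.0 against 15.8). *Atf3* was lower in set 1 (0.371 against 1.27) and at 2.30 against 1.87 in set 2. In set 3 the interval of the *Atf3* ratio (0.982, 0.774 to 1.23) contained 1.

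Counted over the members, *Fos*, *Junb* and *Atf3* were at least 2-fold lower in the antral mural-like subclass of set 1 than in the preantral-like one, 3 of 6 members with enough UMIs beside 7% of all genes, and none was higher, beside 11.3%. In set 2 *Fos* was lower, 1 of 7 beside 23.9%, and no member other than *Fosl1* was higher, beside 12.0%. *Fosl1* was at a ratio of 3.31 (1.37 to 10.4), on 108 and 5 UMIs. In set 3 no member of 6 was 2-fold higher (9.09%) or lower (8.89%). The median stress list was at 19.2 UMIs per 10000 in antral mural-like against 51.2 in preantral-like GCs of set 1, 77.0 against 71.1 in set 2 and 53.2 against 40.6 in set 3, and its part was not tested. *Jun*, *Jund* and *Fosb* stayed between 0.6004 and 1.30 in all 3 sets.

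**Figure D4:**
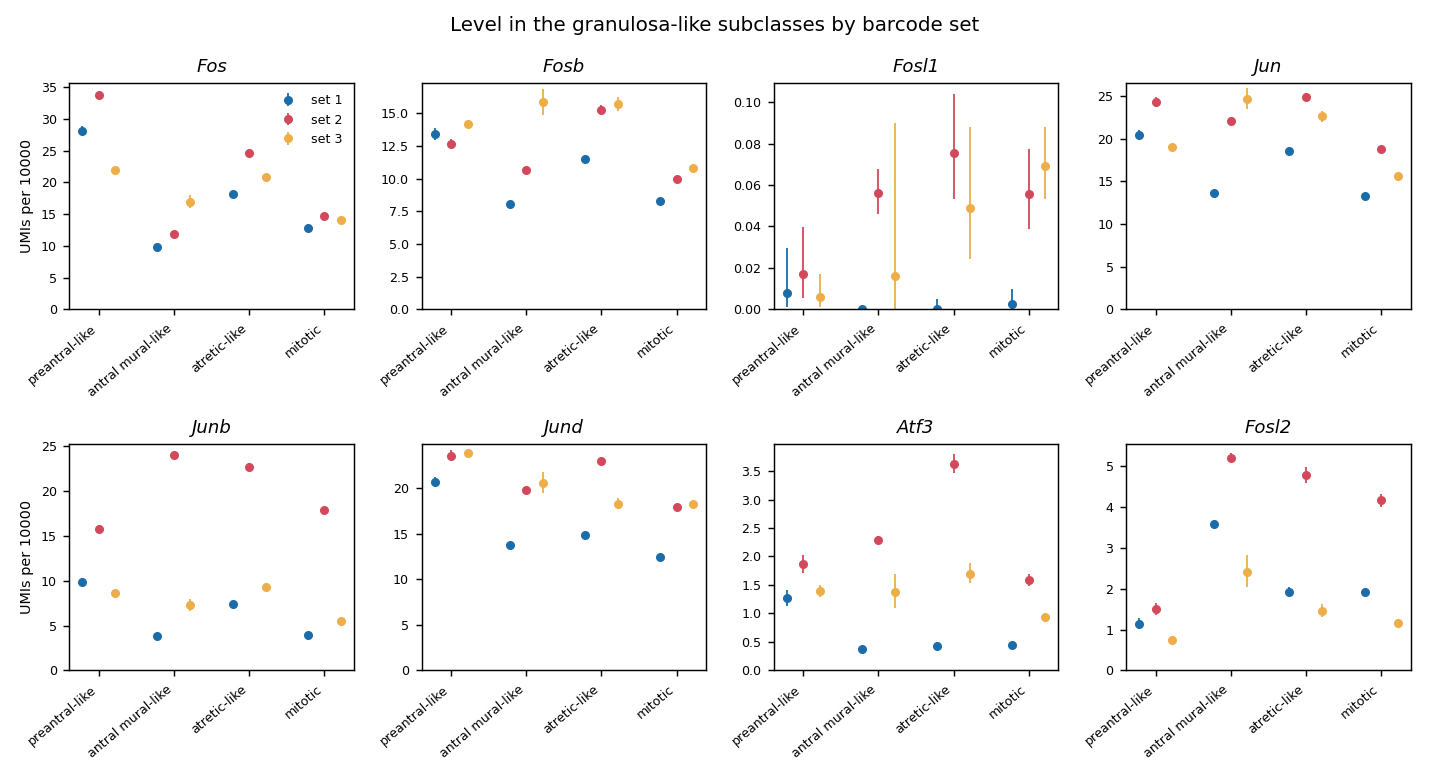
Level in UMIs per 10000 (y axis, from 0, scale set for each gene) of 7 members and *Fosl2* in preantral-like, antral mural-like, atretic-like and mitotic granulosa-like cells (x axis) of barcode sets 1, 2 and 3 (colours), with 95% Poisson intervals. Going from preantral-like to antral mural-like cells, *Fos* is lower and *Fosl2* higher in every set, and *Junb* is lower in set 1 and higher in set 2.

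The set differences of *Junb* were widest in antral mural-like GCs. There it was at 3.78, 24.0 and 7.24 UMIs per 10000 in sets 1, 2 and 3, 6.35-fold higher in set 2 than in set 1 (6.18 to 6.52). In preantral-like GCs, at 9.88, 15.8 and 8.65, the ratio was 1.60 (1.52 to 1.68), and in atretic-like GCs, at 7.37, 22.7 and 9.32, it was 3.07 (2.97 to 3.18). *Atf3* was 6.19-fold higher in antral mural-like GCs (5.68 to 6.76), 1.48-fold in preantral-like GCs (1.28 to 1.70) and 8.52-fold in atretic-like GCs (7.55 to 9.65). The median stress list in atretic-like GCs was at 33.5, 105.5 and 49.65 UMIs per 10000 in sets 1, 2 and 3, and its part was not tested. *Fosl1* had 0 UMIs in 2019 antral mural-like cells of set 1 and 108 in 2484 cells of set 2, at least 30.1-fold higher against a floor of 3 UMIs in set 1, where the lower end of the exact interval, with the counting error of both sets, was 24.1. *Junb* and *Atf3* were thus 2 of the 6 other members at least 2-fold higher here, beside 7.53% of all genes. From set 2 to set 3, *Junb* (0.302, 0.274 to 0.331) was the only 1 of the 6 at least 2-fold lower, beside 11.5%, and *Fosl1*, with 1 UMI in set 3, had an interval of 0.00721 to 1.64, which contained 1. Without the 25% of cells highest in the stress list, the *Junb* ratio of set 2 over set 1 was 6.83 in antral mural-like GCs and 1.83 in preantral-like GCs.

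Mitotic GCs, which express *Mki67*, *Top2a* and other genes of the G2 and M phases, numbered 620, 494 and 721. *Fos*, *Fosb*, *Jun*, *Junb* and *Jund* were lower in them than in other granulosa-like cells of every set, with ratios of 0.660 to 0.876. *Atf3* was at 0.901 (0.795 to 1.02) in set 1 and at 0.570 and 0.549 in sets 2 and 3. *Fosl1* showed no such difference within its intervals, at 0.925 (0.623 to 1.34) in set 2 and 1.24 (0.899 to 1.70) in set 3. *Fosl2* was at 0.658, 0.898 and 0.831. The median depth of mitotic GCs was 10364, 11990 and 11937 UMIs in sets 1, 2 and 3, against 5654, 6525 and 6674 in the others. Levels in mitotic GCs are thus shares of a larger total per cell. The median stress list was at 21.1 against 25.3, 68.85 against 82.8 and 47.85 against 58.7 UMIs per 10000. The part of depth and of the stress list in these ratios was not tested.

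Other genes of the pathway were read over all cells from lists chosen with earlier results of these data known. Of 12 bZIP relatives of AP-1, 11 had enough UMIs in set 2 over set 1, and *Maff* (3.62-fold) and *Mafk* (2.55-fold), small MAF repressors without an activation domain, were at least 2-fold higher, beside 5.21% of all genes, with a list median of 1.46 against 0.825 over all genes. Between sets 3 and 2, *Maff* alone was at least 2-fold lower, at 0.271, beside 10.5%, with a list median of 0.777 against 1.06. Set 3 over set 1 *Batf3* alone of 12 was that much higher, 3.03-fold, beside 6.78%, with a list median of 0.987 against 0.894. Of 10 kinases and factors upstream of AP-1, *Crem*, whose ICER products repress cAMP response elements, was at 0.161, 2.78 and 0.342 UMIs per 10000. It was the only 1 of the 10 at least 2-fold higher in set 2 than in set 1 (17.3-fold), beside 5.21% of all genes, and *Crem* and *Srf*, which drives *Fos* from the serum response element, were lower in set 3 than in set 2 (0.123 and 0.402), beside 10.5%. The list medians were 0.869 and 0.936, and 0.792 for set 3 over set 1, where *Crem* was again the only 1 (2.12-fold), beside 6.78%.

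Of 10 genes known as AP-1 targets, 9 had enough UMIs. *Plaur*, the urokinase receptor (4.70-fold), and *Plau*, urokinase (3.13-fold), were at least 2-fold higher in set 2 than in set 1, with a list median of 1.22. In set 3 over set 2, 4 were higher, led by *Timp1*, a metalloproteinase inhibitor (14.5-fold), and *Spp1*, osteopontin (11.6-fold), with a median of 1.05, and set 3 over set 1, 5 were higher with a median of 3.31. None was at least 2-fold lower in any of the 3 comparisons, beside 9%, 10.5% and 14.4% of all genes, shares at which a list of 9 holds few such genes. Over all genes, 5.21%, 9.55% and 6.78% were that much higher, and the medians were 0.825, 1.06 and 0.894.

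The stress list had 4 of 15 genes at least 2-fold higher in set 2 than in set 1, led by *Nr4a1* (3.801-fold) and *Cebpb* (3.71-fold), and none lower, with a median of 1.27. For set 3 over set 2, *Mt2* (4.94-fold) and *Mt1* (2.82-fold), 2 metallothioneins, were higher and 3 were lower, led by *Nr4a1* (0.179) and *Btg2* (0.314), with a median of 0.839, and set 3 over set 1, 3 were higher with a median of 1.07. Of 7 genes of the response to LH, 6 were higher in set 2 than in set 1, led by the EGF-like ligands *Areg* (311-fold) and *Ereg* (96.6-fold), and *Lhcgr* was lower (0.399), with a median of 24.1. In set 3 over set 2, 5 of the 7 were lower, led by *Areg* (0.0184) and *Ereg* (0.0970), with a median of 0.170, and in set 3 over set 1, 5 were higher and *Lhcgr* lower (0.0866), with a median of 9.21. For both lists, the shares of all genes at least 2-fold higher and lower were 5.21% and 9% for set 2 over set 1, 9.55% and 10.5% for set 3 over set 2, and 6.78% and 14.4% for set 3 over set 1.

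The genes most like each member were taken over 18 points, the log2 levels of 6 classes in 3 sets, among 10844 genes with at least 1000 UMIs. *Junb* was most like *Btg2* (r = 0.91), *Gadd45b* (0.89) and *Maff* (0.84), the last a bZIP relative. *Atf3* was most like *Nfkbiz* (0.93), *Ccrl2* (0.91) and *Gm26532* (0.89). No genes are named for *Fosl1* and *Batf*, which had 0 UMIs in 5 and 2 of the 18 points and 1 to 5 UMIs in 6 and 7 more, so that their profiles rest on the 0.05 UMIs per 10000 added before the logarithm. *Fos* had *Rac3* (0.86), *Itgb5* (0.85) and *Jun* (0.84), *Fosb* had *Akt2* (0.88), *Rhou* (0.87) and *Pik3r2* (0.84), *Jun* had *Fos* (0.84), *Jund* (0.78) and *H3f3b* (0.72), and *Jund* had *Jun* (0.78), *Tbp* (0.61) and *Fam133b* (0.60). The reference *Fosl2* was most like *Braf* (0.93), *Ube2b* (0.92) and *Klf16* (0.89), with r = -0.12 to *Fos*, 0.00 to *Jun* and 0.45 to *Junb*. The points share their libraries, and sets of unequal depth enter each class, so these values are a description. The named genes were picked as the highest of 10844 over only 18 points. How high r becomes by such a choice alone was not measured, and no shared regulation is read from it.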

How the data were processed

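The authors deposited 1 table for all libraries, with values on a natural log scale: each is ln(1 + x), where x is a gene's UMIs scaled to 10000 in that cell. The submitters' processing notes name Cell Ranger, Seurat and mm10, without versions, and filters on cells are not given in the sources used here. UMIs were worked back from the log values: 100% of 80167176 values above 0 were whole within 0.01 UMI. Cells were gated by the mean of their marker genes, each scaled to its 90th percentile over cells above 0, with a score of at least 0.2 and a margin of 0.05 over the next class (0.25 and 0.1 for GC subclasses, 0.3 for mitotic). The gate was set after looking at marker levels and cell numbers. The members, lists and comparisons were chosen with earlier results of these data known. Named genes are the members, *Fosl2*, the 3 genes most like each member (for *Fosl1* and *Batf* none, for lack of UMIs), and from each list the 2 with the largest ratio in each direction past 2-fold. A ratio needed 50 UMIs over both groups, and a call was a ratio of at least 2 or at most 0.5. No doublet caller was run. Shares of cells were also taken after thinning each cell to 3000 UMIs, which left out 3042 cells. No test was run, because each time point has 1 library and cells carry no library name. The ratio and interval code was tested on simulated data. The tools were python-igraph 0.11.9, matplotlib 3.10.9, scikit-learn 1.9.0, scipy 1.17.1, numpy 2.4.6 and Python 3.11.15. Promoter stretches are from RefSeq (GRCm38.p6).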

Additional observations from a re-analysis of the deposited data

Results flagged for a closer look

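Some members went in opposite directions between barcode sets in granulosa-like and in stroma-like cells, with both counting intervals off 1. The difference between the classes was not tested, since each class has 1 value per set. Set 2 over set 1 this held for 5 members: *Fos* was at 1.21 in granulosa-like and 0.640 in stroma-like cells, *Fosb* at 1.26 and 0.638, *Jun* at 1.46 and 0.655, *Jund* at 1.43 and 0.747, and *Atf3* at 5.26 and 0.642. Set 3 over set 2 it held for *Jun*, at 0.896 and 1.25 (1.24 to 1.27), and *Atf3*, at 0.575 and 1.55. Set 3 over set 1 it held for 4 members: *Fos* was at 1.22 and 0.758, *Jun* at 1.31 and 0.822, *Junb* at 1.39 and 0.709, and *Jund* at 1.43 and 0.839. For set 2 over set 1, *Fos*, *Fosb* and *Jun* were below 1 also in endothelial-like (0.793, 0.8003 and 0.875) and smooth muscle-like cells (0.799, 0.7975 and 0.714). They were above 1 in theca-like (1.17, 1.11 and 1.25) and myeloid-like cells (1.25, 1.22 and 1.77). *Jund* (1.09 in endothelial-like cells) and *Atf3* (1.16, 0.96 to 1.41, in smooth muscle-like cells) did not follow this split. The pooled granulosa-like ratio spans another make-up in each set, with 2019 of 4117 cells antral mural-like in set 1 and 90 of 3509 in set 3. In preantral-like GCs alone, *Fos* (0.782), *Jun* (0.929) and *Junb* (0.875) were below 1 for set 3 over set 1, the direction of stroma-like cells. *Jund* (1.155) was above 1 there. *Fos*, *Jun*, *Junb* and *Jund* were at 1.73, 1.81, 1.915 and 1.499 in antral mural-like GCs, the direction of the pooled class. In atretic-like GCs they were at 1.14, 1.22, 1.265 and 1.23, also above 1. *Fos* was at 1.05 in granulosa-like cells outside all subclasses, where *Jun*, *Junb* and *Jund* were above 1 as well. Without the 25% of all cells of each set highest in the stress list, none of the 4 opposite directions for set 3 over set 1 remained: the stroma-like ratios were 1.26 for *Fos*, 1.25 (1.22 to 1.27) for *Jun*, 1.23 for *Junb* and 1.15 for *Jund*. The same step left *Fos* of preantral-like GCs below 1, at 0.901. It took *Junb* there to 1.13 (1.063 to 1.2) and *Jun* to 1.04 (0.998 to 1.08), and *Jund* was at 1.32. For set 2 over set 1, *Atf3* turned to 1.35 in stroma-like cells and *Jund* was at 0.998 (0.977 to 1.02), while *Fos*, *Fosb* and *Jun* were at 0.95, 0.848 and 0.929, still below 1. For set 3 over set 2, both members kept their opposite directions, *Jun* at 0.901 in granulosa-like and 1.34 in stroma-like cells and *Atf3* at 0.565 and 1.87. With the 25% taken within each class and set, the stroma-like ratios stayed below 1 for the 5 members of set 2 over set 1, at 0.678 to 0.844, and for the 4 of set 3 over set 1, at 0.92 to 0.981. They stayed above 1 for *Jun* (1.35) and *Atf3* (1.705) of set 3 over set 2. The direction thus depends on how the cells are left out for the 4 members of set 3 over set 1 and for *Atf3* of set 2 over set 1. It was the same both ways for *Fos*, *Fosb* and *Jun* of set 2 over set 1 and for *Jun* and *Atf3* of set 3 over set 2.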

How the results depend on the processing

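With the 25% of cells highest in the stress list left out, 3 members instead of 1 were past 2-fold over all cells between sets 2 and 1 and 2 instead of 1 between sets 3 and 1, and 1 instead of 2 between granulosa-like and other cells of set 1. Under a stricter gate, 1 instead of 2 members were past 2-fold in granulosa-like cells between sets 3 and 1 and 3 instead of 1 between sets 3 and 2, and against other cells 1 instead of 2 in set 2 and 2 instead of 1 in set 3. For granulosa-like against other cells, thinning gave 1 instead of 2 in set 2 and 0 instead of 1 in set 3, and in set 3 the mean over cells, classes from clusters and leaving ungated cells out of the other cells each gave 2. The number of members highest in granulosa-like cells of set 3 was 1 instead of 2 after thinning and under the stricter gate. The calls that came and went were those of *Fosl1*, *Batf*, *Junb* and *Atf3*. The share of all genes past 2-fold was not taken under these settings. These counts, which include *Fosl1* and *Batf*, therefore only describe how calls moved and are not read as a result about the members. The cause was not tested, except that thinning leaves fewer UMIs. Leaving ungated cells out, the number of members highest in granulosa-like cells, and leaving out the cells highest in the stress list within each class and set were added after seeing the data.

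No ratio that was past 2-fold changed direction. Of 68 ratios of single members, 65 kept their direction with the mean over cells, 61 with the 50 most abundant genes left out of the totals, 67 with the filter on depth and mitochondrial share, and 57 without the cells highest in the stress list. After thinning 62 of 66 did, and of 44 ratios 40 did under the stricter gate, 41 with classes from clusters and 40 without cells of more than 1 class. The values for *Fosl1* and *Batf* rest on 670 and 250 UMIs in all, which limits their precision. No paired analysis was possible because each time point has 1 library and no cell is tied to a library.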
